A study of Homo sapiens with 12 samples.

Results

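The genes described here encode the proteins of the cytosolic ribosome, and their transcripts were counted in MDA-MB-231, a human cell line long grown in culture and derived from triple-negative breast cancer. A gene belonged to the set when its symbol was RPL or RPS followed by a number, with or without a final A or X, or when it was RPLP0, RPLP1, RPLP2 or RPSA. This name rule found 77 genes among the 52859 genes of the count table, 31 of the small subunit and 46 of the large subunit, and left out the 1452 named pseudogenes. Cells had received 20 nM of a locked nucleic acid (LNA), a short stabilised oligonucleotide that pairs with a complementary RNA, by lipid transfection and were collected on day 2. The 4 groups were a control LNA, the mtAsn-1 LNA and the mtAsn-2 LNA, both named for the mitochondrial asparagine tRNA, and the mtLys LNA, named for the mitochondrial lysine tRNA. All 4 groups received an LNA, so an untransfected state was not analysed here. Each group had 3 libraries. The labels do not tell whether they came from different dishes, so the p-values cover only library-to-library spread, possibly of technical origin.

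A ribosome is made of ribosomal RNA and a fixed set of proteins, most of them needed in equal numbers. The small subunit reads the messenger RNA while the large subunit joins amino acids. In growing cells the messengers of ribosomal proteins are among the most abundant of all. Most of them begin with a 5′ terminal oligopyrimidine tract (TOP), a run of C and T bases at the very start of the transcript, through which the kinase complex mTORC1 and the RNA-binding protein LARP1 are known to set how fast they are translated. Ribosomal proteins made in excess of ribosomal RNA are known to be degraded, apart from a few that act outside the ribosome, such as RPL5 and RPL11, which bind MDM2.

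The libraries held 17978825 to 37708993 counts. The table lists 3, 6 and 2 reads for the asparagine tRNA gene in the control libraries, against 5, 2 and 2 with mtAsn-1 and 1, 1 and 3 with mtAsn-2. Reads of the lysine tRNA gene numbered 182, 181 and 111 for control and 280, 283 and 198 for mtLys. An LNA can block an RNA without lowering its amount, so these reads do not check the labels. Markers of the line were present, with VIM at 3967 to 4897 TPM (a level per exon length, scaled to the same total in every library) and CD44 at 222.5 to 325.5 TPM, although SPARC was low at 2.63 to 5.365 TPM. ESR1 and PGR reached at most 0.0410 and 0.00522 TPM, CDH1 at most 0.299 TPM, and the leukocyte marker PTPRC at most 0.126 TPM, whereas ERBB2 stood at 43.82 to 62.05 TPM.

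Start-site sequences were compared because the TOP tract is what these genes are best known to share. RefSeq promoters (GRCh38.p14) were matched for 62 of the 77 genes. A run of at least 6 C or T bases on the transcribed strand overlapped the window from 10 bases before to 10 bases after the annotated start in 55 of 62, or 88.7%, against 31.5% of all 27305 tabulated promoters. The start base itself was C in 46 of 62, or 74.2%, against 14.99% of promoters. The 60 bases around the start are printed for the genes that the results below turn on, from 40 bases before the start to the first 20 transcribed bases, with the C and T run in capitals where there was one. RPL12, RPS3 and RPL27A departed from the other members in at least 1 group, RPS14 and RPS27 were among the members that differed most between mtAsn-2 and mtLys, and RPS4X and RPL13 had no such run in this window.
RPL12, chr9:127451387-127451446, minus strand: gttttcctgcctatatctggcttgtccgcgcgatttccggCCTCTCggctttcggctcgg
RPS3, chr11:75399478-75399537, plus strand: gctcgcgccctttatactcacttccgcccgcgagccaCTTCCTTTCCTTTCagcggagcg
RPL27A, chr11:8682752-8682811, plus strand: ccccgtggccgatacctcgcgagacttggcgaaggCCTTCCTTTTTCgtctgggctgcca
RPS14, chr5:150449720-150449779, minus strand: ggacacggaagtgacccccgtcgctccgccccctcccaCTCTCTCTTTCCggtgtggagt
RPS27, chr1:153990722-153990781, plus strand: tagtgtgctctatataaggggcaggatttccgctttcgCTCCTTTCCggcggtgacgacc
RPS4X, chrX:72277229-72277288, minus strand: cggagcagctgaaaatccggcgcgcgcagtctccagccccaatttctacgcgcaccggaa
RPL13, chr16:89560617-89560676, plus strand: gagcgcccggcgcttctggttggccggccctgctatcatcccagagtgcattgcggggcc

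The run held 14 bases in RPS3, 12 in RPL27A and RPS14, 9 in RPS27 and 6 in RPL12. In RPL12 it began at the annotated start base, and in the other 4 it began before it. Across the 300 tabulated bases of each promoter, on either strand, the SP1-type motif GGGCGG was found in 34 of 62 members (54.8%, against 44.6% of promoters) and the ETS-type motif CCGGAAG in 21 of 62 (33.9%, against 10.7%). The TATA-type motif TATAAA was found in 5 of 62 (8.07%, against 11.95%). These matches describe letters only, and a window without a match shows nothing about the factor.

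Most members were abundant. Mean levels over the 12 libraries, compared between genes per exon length, were led by RPLP0, the base of the ribosomal stalk, at 4584 TPM, and RPL13A, a large-subunit protein that also joins the GAIT complex, was among the highest at 4337 TPM. Counts were above 1000 in every library for 68 members. The exon length of a tested member in the table ran from 390 to 7573 bases with a median of 1150, and it counts the exons of every annotated isoform, so that long minor isoforms lower the level per length, as in RPS29, a small-subunit zinc-binding protein, with 171.9 TPM.

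At the other end, 5 members had too few counts to be tested. Among them, RPS18 had 0 counts in all libraries together, RPS25 had 1, RPL7A had 13 and RPS9 had 44. The untested members were also the only 5 members with further copies on alternate loci in the table, and none of the 72 tested members had such a copy. How reads that fit several places were counted is not given in the sources used here, so these totals are not levels of expression. Among the tested members, RPL36A (2.495 TPM), RPL17 (16.6 TPM) and RPS10 (18.2 TPM) were the lowest and shared 43.8%, 53.1% and 59.95% of their exon bases with read-through or nested genes on the same strand (RPL36A-HNRNPH2, RPL17-C18orf32 with SNORD58B, and RPS10-NUDT3). Overlap on the opposite strand reached 59.0% of exon bases in RPL38 and 42.7% in RPL10, and without strand information reads of such pairs cannot be told apart. Named pseudogenes held 1.32% to 1.395% as many counts as the members together in every library. For single members, over all libraries, they held 7355 counts against 231 for RPL36A, 3996 against 1831 for RPS10 and 4878 against 4140 for RPL39. For RPL17 it was 1050 against 2277. Among the other tested members RPL23A had the largest share, at 5.91%. Pseudogenes of the untested RPS18, RPL7A and RPS25 held 1819, 3853 and 1653 counts.

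The share of a library's counts that fell in the 77 genes was highest with mtAsn-2 and lowest with mtLys. In the control libraries it was 4.301%, 4.541% and 4.489%, and with mtAsn-1 it was 4.496%, 4.646% and 4.462%. With mtAsn-2 it was 5.046%, 5.000% and 4.971%, and with mtLys 4.163%, 4.053% and 4.239%. The mtAsn-2 libraries all lay above every other library and the mtLys libraries all below, while control and mtAsn-1 overlapped. The means were 4.44 ± 0.126% for control, 4.54 ± 0.098% for mtAsn-1, 5.01 ± 0.038% for mtAsn-2 and 4.15 ± 0.093% for mtLys (SD, n = 3 each). The mtAsn-2 share was 1.127 times that of control and 1.206 times that of mtLys, and the mtLys share was 0.934 times that of control. Part of the mtAsn-2 difference was common to other genes. Scaled by library totals alone, as shares are, the median tested gene with mtAsn-2 was itself 0.07 above control on the log2 scale. Against mtLys it was 0.09 above. Two-sided exact permutation tests gave p = 0.5 for mtAsn-1 against control and p = 0.1, the smallest that 3 against 3 libraries allow, for the other 5 pairs (adjusted p = 0.12 over 6 pairs), so none could pass 0.05.

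**Figure D1:**
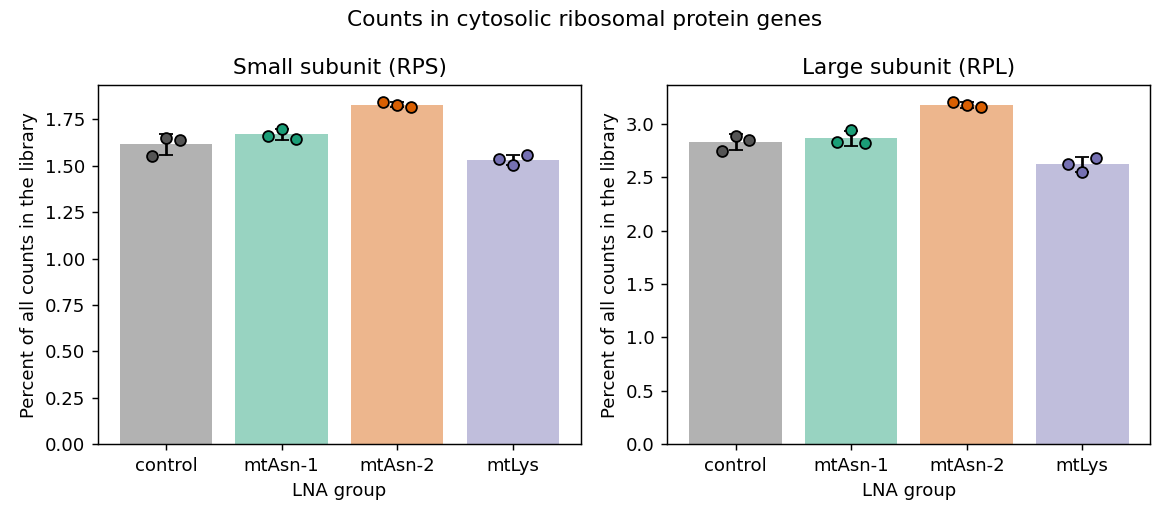
Percent of all counts in small-subunit (left) and large-subunit (right) ribosomal protein genes in each library (points), with the group mean (bars) and SD (error bars, n = 3). In both panels the mtAsn-2 libraries are the highest, at means of 1.83% and 3.18%, and the mtLys group has the lowest mean, at 1.53% and 2.62%.

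Both subunits took part. Small-subunit genes took 1.615 ± 0.055% of control counts, 1.669 ± 0.029% in mtAsn-1, 1.828 ± 0.014% in mtAsn-2 and 1.532 ± 0.027% in mtLys, and large-subunit genes held 2.829 ± 0.072%, 2.866 ± 0.069%, 3.177 ± 0.025% and 2.620 ± 0.067% (SD, n = 3). For the small subunit alone, mtLys and control libraries overlapped (exact permutation p = 0.2). Small-subunit counts were 57.1 ± 0.60%, 58.2 ± 0.46%, 57.55 ± 0.02% and 58.5 ± 0.48% of large-subunit counts in the order control, mtAsn-1, mtAsn-2, mtLys (SD, n = 3). The libraries overlapped for mtAsn-2 and control (exact permutation p = 0.4) and for mtAsn-1 and mtLys (exact p = 0.5). They did not overlap for the other 4 pairs (exact permutation p = 0.1, adjusted p = 0.15 over 6 pairs), whose ratios lay between 0.984 and 1.024. In bulk RNA, more transcripts per cell and a change in the rest of the RNA cannot be told apart from such shares.

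Gene by gene, differences were small and ran mostly one way within a comparison. Counts were tested with edgeR's quasi-likelihood test over 16051 genes, 72 of them members, and a gene was called at a Benjamini-Hochberg adjusted p under 0.05. No tested member differed by 2-fold or more in any of the 6 comparisons. The spread between replicates was also small, with a median SD in log2 CPM (counts scaled to library size) of 0.047, 0.046, 0.025 and 0.041 over members in control, mtAsn-1, mtAsn-2 and mtLys, against 0.0902, 0.1001, 0.0828 and 0.074 over all tested genes. Log2 fold changes are on the log2 CPM scale and are given with standard errors (SE). The 3 comparisons against control share the control libraries, and so their results are not independent of each other.

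With mtAsn-2, 43 of 72 tested members were higher than in control and 2 were lower, where 24.1% of all tested genes were higher and 27% lower. The median member differed by 0.12 on the log2 scale, a fold of 1.084, against -0.01 for all tested genes. The libraries did not overlap for 49 members that were higher and 4 that were lower, against 27.1% and 29.7% of all tested genes. The largest rises were in RPS3 (log2 fold change 0.36 ± 0.04 SE), RPL17 (0.32 ± 0.10), RPS27 (0.28 ± 0.04), RPL29 (0.24 ± 0.04) and RPL11 (0.24 ± 0.04). RPS27 is a zinc-finger protein of the small subunit, RPL29 a large-subunit protein also known to bind heparin, and RPL11 part of the particle with 5S ribosomal RNA. The call for RPL17 was lost when counts of its named pseudogenes were added (adjusted p = 0.30) and without mtAsn-2 replicate 1 (adjusted p = 0.057). The 2 members that fell were RPL27A and RPS4X, described further on. Without control replicate 1, 5 members were called lower, against 4013 of all 16473 tested genes.

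With mtLys the members leaned the other way. Of 72 tested members, 30 were lower than in control and 1 was higher, where 23.9% of all tested genes were lower and 24.6% higher, and the median member was at -0.09 on the log2 scale (fold 0.941) against 0.00 for all. Libraries did not overlap for 30 members that were lower and 1 that was higher, against 27.9% and 28.3% of all tested genes. Among called members, the largest falls after RPL12 (-0.46 ± 0.04) were in RPL39 (-0.25 ± 0.09), a very short protein of the exit tunnel, RPS15 (-0.20 ± 0.04), RPL4 (-0.19 ± 0.04), which lines the exit tunnel, RPS14 (-0.19 ± 0.04) and RPLP0 (-0.18 ± 0.04). RPL36A, at -0.37 ± 0.25, was not called, but with counts of its named pseudogenes added it was called lower (-0.17, adjusted p = 0.025). RPS3 was the single member called higher. The count of falls was 20 without control replicate 2 and also without mtLys replicate 2. All tested genes called lower in these settings numbered 3319 of 16283 and 3479 of 16342. RPL39 lost its call in DESeq2 (adjusted p = 0.051).

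With mtAsn-1 the share called higher was close to that of all genes. Of 72 tested members, 19 were higher than in control, which is 26.4% against 24.3% of all tested genes, and 3 were lower against 24.2%. The median member was at 0.04 on the log2 scale. The largest rises were in RPS3 (0.37 ± 0.04), RPL3 (0.24 ± 0.04), which lies beside the peptidyl transferase centre, RPS20 (0.19 ± 0.04), RPL35A (0.17 ± 0.04), RPL10 (0.16 ± 0.04), which joins the large subunit last, and RPS12 (0.16 ± 0.04). The 3 that fell were RPL12 (-0.27 ± 0.04), RPL4 (-0.10 ± 0.04) and RPL36A (-0.72 ± 0.29). RPL36A rested on 8 to 29 counts per library, and its call was lost in DESeq2 (adjusted p = 0.14) and with the compared groups alone (adjusted p = 0.050). With counts of its named pseudogenes added, RPL36A was at -0.15 and was not called (adjusted p = 0.057). RPL4 lost its call with the compared groups alone (adjusted p = 0.077), which left 1 fall, and without mtAsn-1 replicate 1 there was also 1.

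**Figure D2:**
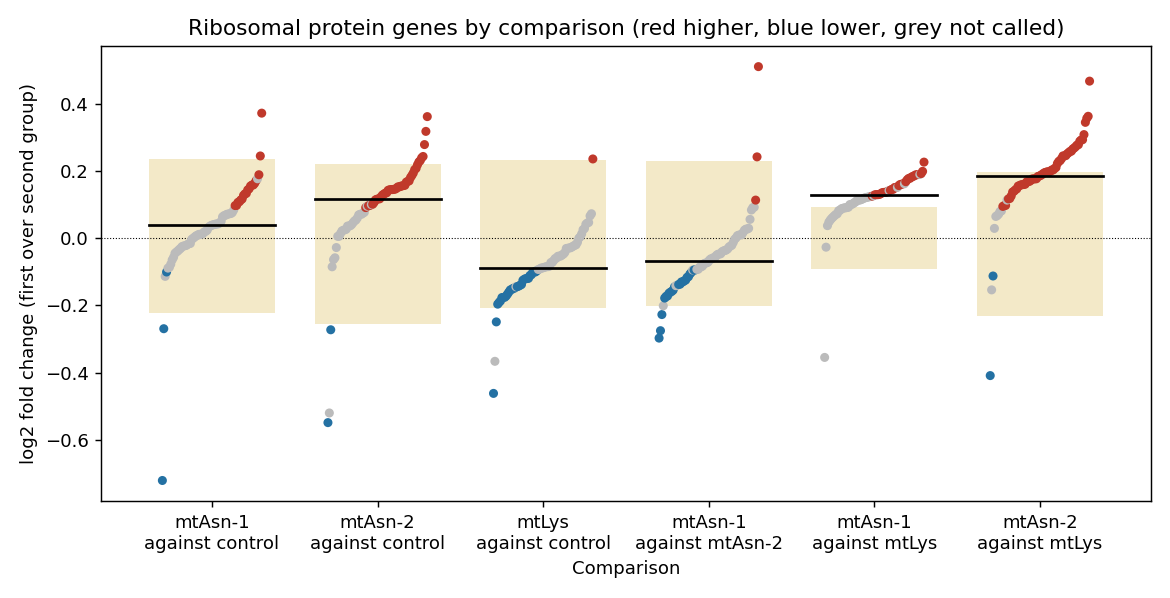
Log2 fold change of each tested ribosomal protein gene (points, in order of size) in the 6 comparisons, first group over second. Red points were called higher, blue lower and grey neither, the black line is the members' median and the tan box spans the middle 50% of all 16051 tested genes; the median line lies at 0.12 for mtAsn-2 against control, -0.09 for mtLys against control and 0.19 for mtAsn-2 against mtLys.

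The direct comparison of mtAsn-2 with mtLys gave the widest difference. Of 72 tested members, 62 were higher with mtAsn-2 and 2 were lower, where 22.9% of all tested genes were higher and 25.7% lower. The median member differed by 0.19 on the log2 scale, a fold of 1.138, against 0.01 for all tested genes, and 66 members had every mtAsn-2 library above every mtLys library, against 27.5% of all genes. It was 21 of 27 tested small-subunit members and 41 of 45 large-subunit members that were higher. RPL12 (0.47 ± 0.04), RPL13 (0.36 ± 0.06), RPS14 (0.36 ± 0.04), RPS27 (0.35 ± 0.04), RPL19 (0.31 ± 0.04) and RPL13A (0.29 ± 0.04) differed most. RPL27A (-0.41 ± 0.04) and RPS4X (-0.11 ± 0.04) were the 2 that were lower.

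RPS14, a small-subunit protein whose loss of 1 copy is known from the 5q- form of myelodysplastic syndrome, stood at 597.5, 648.0 and 639.8 CPM in control and at 629.3, 597.3 and 586.3 CPM with mtAsn-1. It stood at 721.5, 700.9 and 699.5 CPM with mtAsn-2 and at 543.1, 554.1 and 559.5 CPM with mtLys. The mtAsn-2 libraries were above all others and the mtLys libraries below all others. RPS27 had 714.7, 717.4 and 710.4 CPM with mtAsn-2, above all 9 other libraries, which ranged from 528.7 to 611.6 CPM and overlapped between groups. RPL13, a large-subunit protein, had 780.1, 803.4 and 822.8 CPM with mtAsn-2 against 682.8, 585.3 and 602.5 CPM with mtLys. Its control libraries spread from 632.9 to 718.5 CPM, so the rise against control of 0.22 ± 0.06 (adjusted p = 0.0067) came with a wider spread than in RPS27. RPL19, a large-subunit protein, had 1312, 1278 and 1295 CPM with mtAsn-2 and 1033, 1014 and 1089 CPM with mtLys, with control between at 1120 to 1189 CPM.

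**Figure D3:**
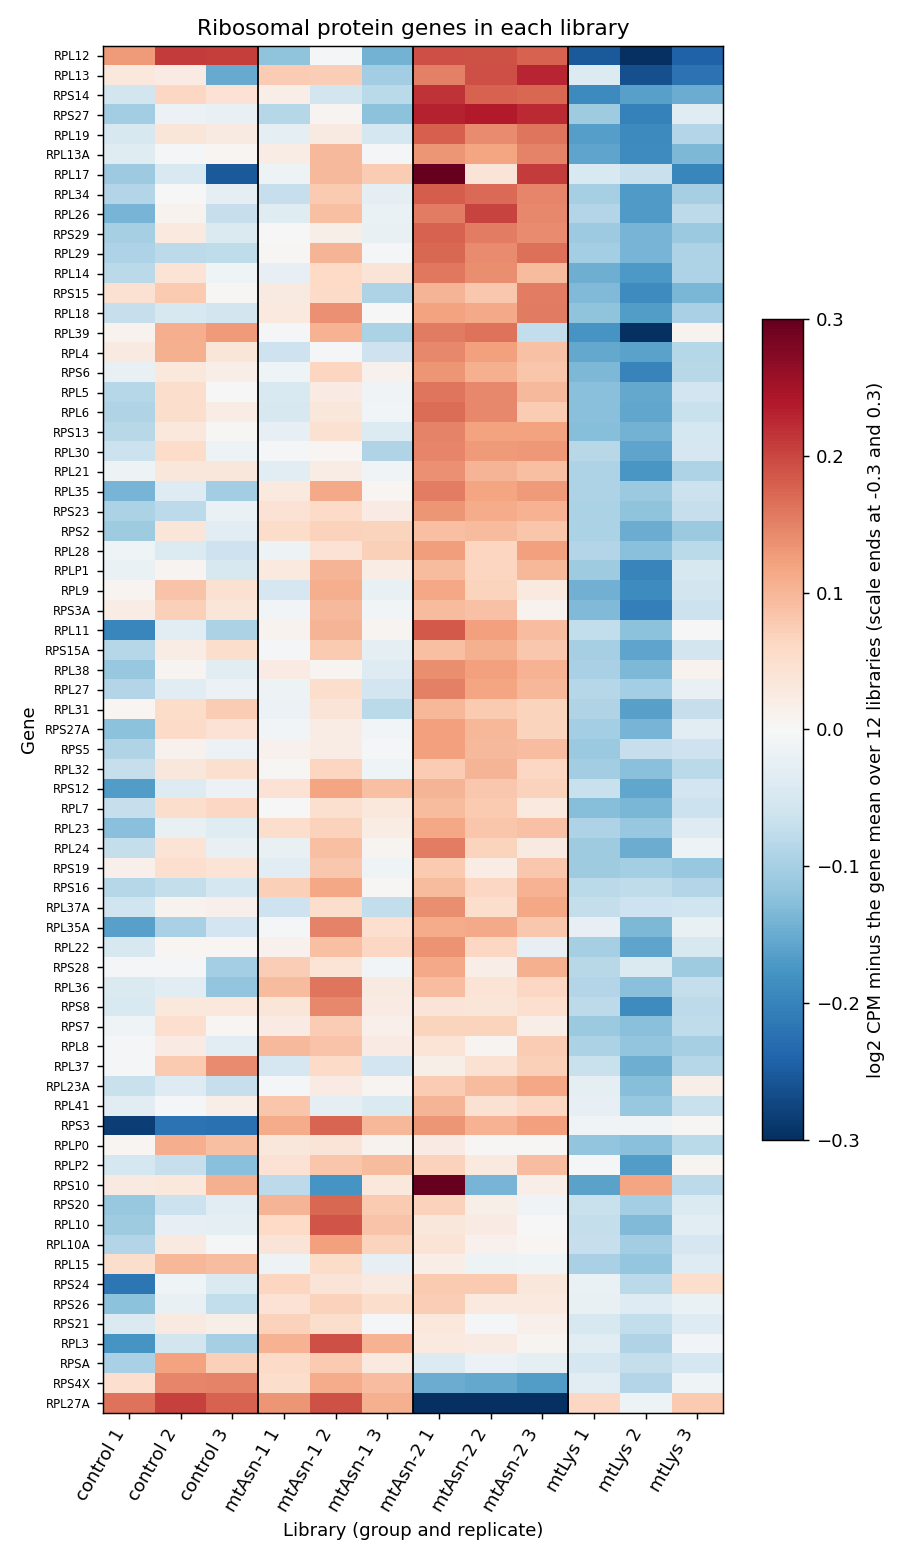
Log2 CPM of each tested ribosomal protein gene (rows, ordered by the fold change of mtAsn-2 against mtLys, RPL36A left out for its low counts and some members not shown) minus its mean over all 12 libraries (columns, groups parted by lines). Most rows are red in the 3 mtAsn-2 columns and blue in the 3 mtLys columns, while RPS3, RPL27A, RPS4X and RPL12 have patterns of their own.

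The pattern held across libraries, with some spread inside groups. The median member lay 0.12, 0.08 and 0.08 above its mean over all libraries (log2 scale) in the mtAsn-2 libraries, and at -0.09, -0.14 and -0.07 relative to it in the mtLys libraries. In each mtAsn-2 library at least 64 of 72 members were above their mean, and in each mtLys library at most 8 were. Control replicate 1 was the lowest of its group, with 15 members above their mean against 47 and 34, and mtAsn-1 replicate 2 was the highest of its group, with 66 against 41 and 36.

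Between mtAsn-1 and mtLys few genes of any kind differed, and ribosomal protein genes made up a visible part of them. Of 72 tested members, 33 were higher with mtAsn-1, where 2.12% of all tested genes were higher and 5.26% differed in either direction, and these 33 were 9.68% of the 341 genes called higher although members were 0.449% of tested genes. No member was called lower in edgeR, against 3.14% of all genes, and none was at an unadjusted p under 0.05 or in DESeq2, which called 39 higher. The median member differed by 0.13 on the log2 scale (fold 1.093), and 58 members had libraries that did not overlap, against 11.7% of all genes. Among the members that differed most were RPL13A (0.20 ± 0.04), RPL12 (0.19 ± 0.04), RPL10 (0.19 ± 0.04), RPS20 (0.19 ± 0.04) and RPL36 (0.19 ± 0.04). This count changed with single libraries, as did that of all genes: it was 9 without mtLys replicate 2, 15 without mtAsn-1 replicate 2 and 20 without mtLys replicate 1, while the genes called higher in all went from 341 to 120, 145 and 257.

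The 2 asparagine LNAs also differed from each other. With mtAsn-1, 23 of 72 tested members were lower than with mtAsn-2 and 3 were higher, where 21.9% of all tested genes were lower and 24.6% higher. The median member differed by -0.07 on the log2 scale, and libraries did not overlap for 30 members that were lower and 6 that were higher, against 25.3% and 27.4% of all genes. RPS27 (-0.30 ± 0.04), RPL12 (-0.28 ± 0.04) and RPS14 (-0.23 ± 0.04) were the furthest down, and RPL27A (0.51 ± 0.04), RPS4X (0.24 ± 0.04) and RPL3 (0.11 ± 0.04) were the 3 that were higher. The call for RPL3 was lost without mtAsn-1 replicate 2 (adjusted p = 0.089). Without mtAsn-1 replicate 3, 15 members were lower, where 3075 of all 16552 tested genes were lower, so the members were then near the share of all genes. Without control replicate 1, 6 members were higher, where 4005 of all 16473 tested genes were higher.

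The size of these counts depends on the scaling of mtAsn-2. Its TMM factors were 1.04 to 1.05, against 0.974 to 0.994 in the other 9 libraries. Scaled by library totals alone, 62 members were higher and 2 lower with mtAsn-2 than in control, 2 higher and 52 lower when mtAsn-1 was set against mtAsn-2, and 68 higher and 1 lower with mtAsn-2 than with mtLys. All tested genes moved with them under that scaling: 5159 higher and 3344 lower against control (3862 and 4337 with TMM), 2803 and 5279 for mtAsn-1 against mtAsn-2 (3949 and 3516) and 5447 and 3101 against mtLys (3682 and 4125). With TMM factors worked out without the members and mitochondrial genes, 45 members were higher than control with mtAsn-2.

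Members are short and abundant, so other tested genes of like length or level are given beside them. Among the 3196 shortest other genes (47 to 1867 exon bases), a range that covers 49 of the members, the median difference between mtAsn-2 and mtLys was 0.04 on the log2 scale, against 0.19 for members. Among the longest it was -0.08. The most abundant other genes, in a range of levels that covers 68 of the members, had a median of -0.03. What part length or level plays in the members' difference was not tested.

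Gene by gene, 4 members had patterns of their own. RPL12, which binds the GTPase-associated centre of the large subunit next to the stalk, was low with mtAsn-1 and mtLys only. It had 925.1, 980.3 and 977.3 CPM in control and 968.9, 967.4 and 958.1 CPM with mtAsn-2. With mtAsn-1 it had 779.6, 844.5 and 768.2 CPM, and with mtLys 711.6, 664.9 and 716.4 CPM. Control and mtAsn-2 overlapped (log2 fold change 0.01 ± 0.04), and the 3 mtLys libraries were below the 3 mtAsn-1 libraries, which were below all others. Against control the adjusted p was 3.2e-06 with mtAsn-1 and 2.4e-10 with mtLys. The difference of 0.19 ± 0.04 between mtAsn-1 and mtLys (adjusted p = 0.0046) was lost without mtLys replicate 2 (adjusted p = 0.051).

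RPS3, a small-subunit protein at the entry of the messenger channel that is also known for a role in DNA repair, was higher than control in all 3 other groups. It had 1012, 1055 and 1053 CPM in control, 1330, 1389 and 1319 CPM with mtAsn-1, 1349, 1321 and 1338 CPM for mtAsn-2, and 1220, 1221 and 1232 CPM for mtLys. No library of another group reached down to the control libraries, and the mtLys libraries lay between control and the asparagine LNAs. The folds over control were 1.295 (adjusted p = 1.1e-09), 1.285 (1.3e-09) and 1.178 (2.8e-06), and mtAsn-1 and mtAsn-2 did not differ detectably (0.01 ± 0.04).

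RPL27A, a large-subunit protein, fell with mtAsn-2 by 0.55 on the log2 scale (SE 0.04, adjusted p = 9.1e-13, fold 0.684). It had 605.3, 623.1 and 610.8 CPM in control, 592.5, 617.3 and 582.2 CPM with mtAsn-1, and 423.1, 411.9 and 422.1 CPM with mtAsn-2. With mtLys it had 564.0, 534.7 and 570.5 CPM. The mtAsn-2 libraries were well below all others, and the mtLys libraries were just below those of control and mtAsn-1 (-0.14 ± 0.04 against control). RPS4X, the X-linked small-subunit protein, had 682.8, 729.6 and 730.7 CPM in control, 683.4, 711.9 and 703.1 CPM with mtAsn-1, 594.5, 593.0 and 586.6 CPM for mtAsn-2, and 644.8, 619.8 and 653.4 CPM for mtLys. Its mtAsn-2 libraries were the lowest, and its mtLys libraries lay between them and the overlapping libraries of control and mtAsn-1. RPS4X was called lower than control with mtAsn-2 (-0.27 ± 0.04) and with mtLys (-0.16 ± 0.04). Its difference between mtAsn-2 and mtLys (-0.11 ± 0.04) was lost with library totals alone (adjusted p = 0.56), without a filter on low counts (0.064), and without mtLys replicate 1 (0.051) or 3 (0.073).

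**Figure D4:**
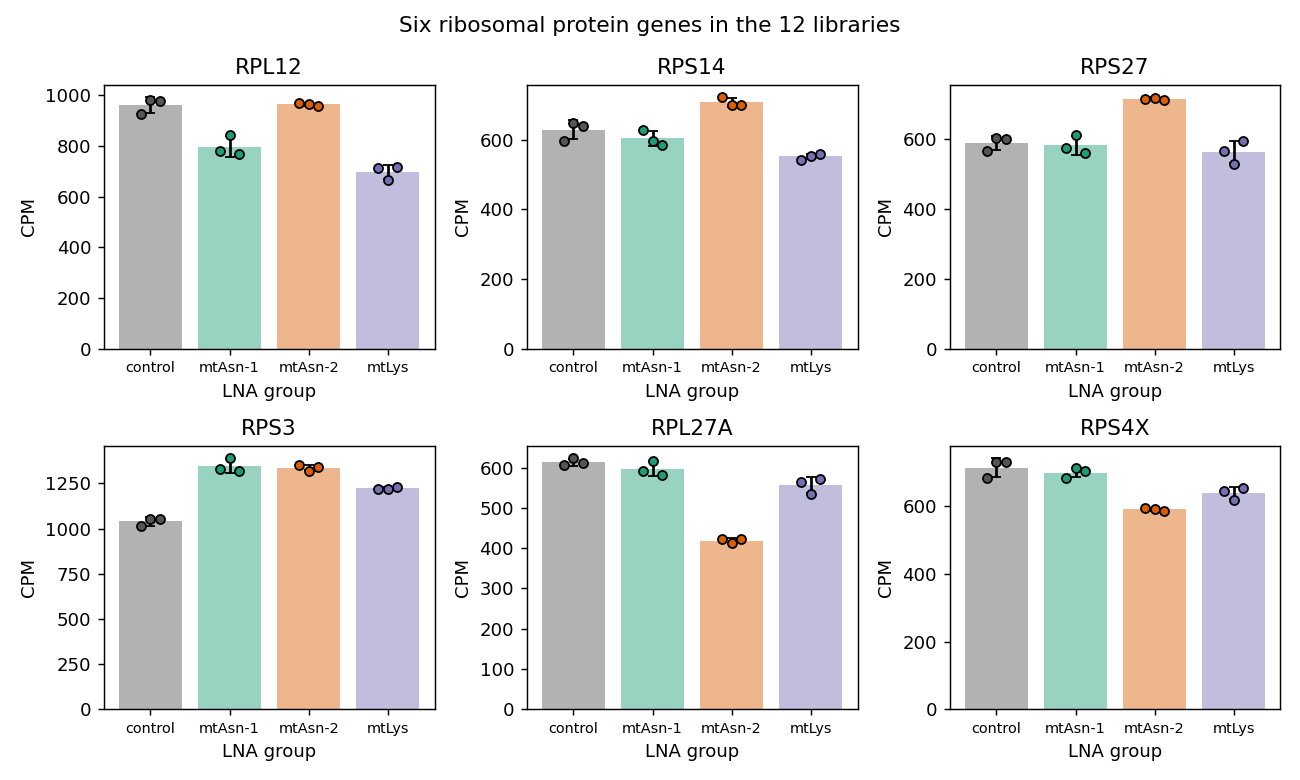
CPM of 6 ribosomal protein genes in each library (points) with the group mean (bars) and SD (error bars, n = 3). RPL12 is low with mtAsn-1 and mtLys, RPS14 and RPS27 are highest with mtAsn-2, RPS3 is lowest in control at 1012 to 1055 CPM, and RPL27A and RPS4X are lowest with mtAsn-2.

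The stalk proteins did not move alike. RPLP0, the scaffold of the stalk, had 2074, 2229 and 2199 CPM in control, 2116, 2121 and 2082 CPM with mtAsn-1, 2101, 2071 and 2073 CPM for mtAsn-2, and 1905, 1894 and 1954 CPM for mtLys. Only the mtLys libraries stood apart, below all others, and RPLP0 fell there by 0.18 on the log2 scale (SE 0.04). RPLP1 and RPLP2, the acidic proteins that pair on that scaffold, were higher than control with mtAsn-2 by 0.11 ± 0.04 and 0.15 ± 0.04. With mtLys, RPLP1 was at -0.10 ± 0.04 (adjusted p = 0.042), and RPLP2 was at 0.03 ± 0.04. This call for RPLP1 was lost in several settings. Among them were the compared groups alone (adjusted p = 0.059), a replicate block (0.066) and leaving out mtLys replicate 1 (0.082) or 2 (0.32). All 3 were higher with mtAsn-2 than with mtLys, by 0.12 to 0.20 on the log2 scale, although RPLP2 (0.12 ± 0.04) was not called when mtLys replicate 2 was left out (adjusted p = 0.19). Leaving out control replicate 3 ended the call of RPLP1 for mtAsn-2 (adjusted p = 0.091), as did leaving out mtAsn-2 replicate 1 or 3. RPSA, a small-subunit protein also known as a laminin receptor, was called in none of the 6 comparisons in edgeR or DESeq2, and 2 of its edgeR p-values were under 0.05 before adjustment (0.036 for mtLys against control and 0.012 for mtAsn-1 against mtLys). Its control libraries had 831.0, 966.8 and 934.7 CPM, and without the first of them it was called lower with mtAsn-2 (-0.13, adjusted p = 0.0072) and with mtLys (-0.16, adjusted p = 0.0013).

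RPL5, RPL11, RPS6 and RPL22 were described because of known roles in signalling or outside the ribosome. RPL5, which enters the ribosome together with RPL11 and 5S ribosomal RNA, had 729.4, 802.8 and 773.3 CPM in control, 865.1, 856.1 and 827.9 CPM with mtAsn-2 and 709.7, 696.5 and 744.6 CPM with mtLys. All mtAsn-2 libraries were above all mtLys libraries, and the difference was 0.24 ± 0.04 (adjusted p = 8.4e-06). RPL11 differed between those groups by 0.20 ± 0.04, and with mtAsn-1 it was above control by 0.15 ± 0.04, a call lost without control replicate 1 (adjusted p = 0.062). RPS6, the substrate of S6 kinases, had 1017, 999.4 and 983.1 CPM with mtAsn-2 and 845.6, 807.8 and 876.4 CPM with mtLys, with control between at 914.7 to 948.9 CPM. RPS6 differed by 0.25 ± 0.04 between mtAsn-2 and mtLys and by -0.15 ± 0.04 between mtLys and control. Its rise over control with mtAsn-2 (0.10 ± 0.04) did not pass when control replicate 1 was left out (adjusted p = 0.11). RPL22, known for binding a viral and its own RNA, was higher in mtAsn-1 (0.16 ± 0.04) and mtAsn-2 (0.16 ± 0.04) than in mtLys and was not called against control. The first of these calls ended when mtLys replicate 2 was left out (adjusted p = 0.17).

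Members were also counted by their start-site features. Between mtAsn-2 and mtLys, the 51 tested members with a run of at least 6 C or T had a median log2 fold change of 0.19 with 44 higher and 1 lower. The 7 without it had 0.18 with 4 higher and 1 lower. Of all tested genes 22.9% were higher and 25.7% lower. The run need not lie at the start base: in RPL11 it lay 13 to 8 bases before it, and in RPS27A it began at transcribed base 11. The split is therefore not one by a TOP start. Against control with mtLys the medians were -0.07 and -0.11. Members with and without the GGGCGG motif had medians of 0.20 and 0.18 between mtAsn-2 and mtLys, and those with and without CCGGAAG also had 0.20 and 0.18, with 14 of 19 and 34 of 39 called higher. Whether these groups of members differ was not tested.

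Ribosomal proteins outside the name rule were looked at next. FAU, which makes a small-subunit protein as a fusion to a ubiquitin-like protein, was higher with mtAsn-2 than with mtLys by 0.12 ± 0.04. It was lower with mtLys than in control (-0.11 ± 0.04, lost without control replicate 2 at adjusted p = 0.13). Of 8 listed paralogs, which share sequence with members so that reads may be split between them, 5 could be tested. RPL26L1, the paralog of RPL26, had a mean of 26.6 ± 1.84 CPM in control (SD, n = 3), 23.6 ± 2.27 CPM for mtAsn-1, 10.7 ± 0.71 CPM for mtAsn-2 and 25.7 ± 1.39 CPM for mtLys. It fell with mtAsn-2 by 1.31 on the log2 scale (SE 0.08, adjusted p = 3.9e-14), while RPL26 itself rose by 0.23 ± 0.04. RPS27L, the paralog of RPS27 and a known p53 target, was below control with all 3 LNAs, at -0.22 ± 0.06, -0.42 ± 0.05 and -0.26 ± 0.05 for mtAsn-1, mtAsn-2 and mtLys. RPL39L was higher with mtAsn-1 (0.35 ± 0.09) and mtAsn-2 (0.30 ± 0.09), with group means of 11.1 to 14.3 CPM. RPL22L1 was higher with mtAsn-2 (0.20 ± 0.07, not called when control replicate 1 was left out, adjusted p = 0.11). RPL7L1 differed from control by 0.12 ± 0.04 with mtAsn-2, -0.10 ± 0.04 with mtAsn-1 and -0.11 ± 0.04 with mtLys, and each of these calls was lost when single libraries were left out.

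**Figure D5:**
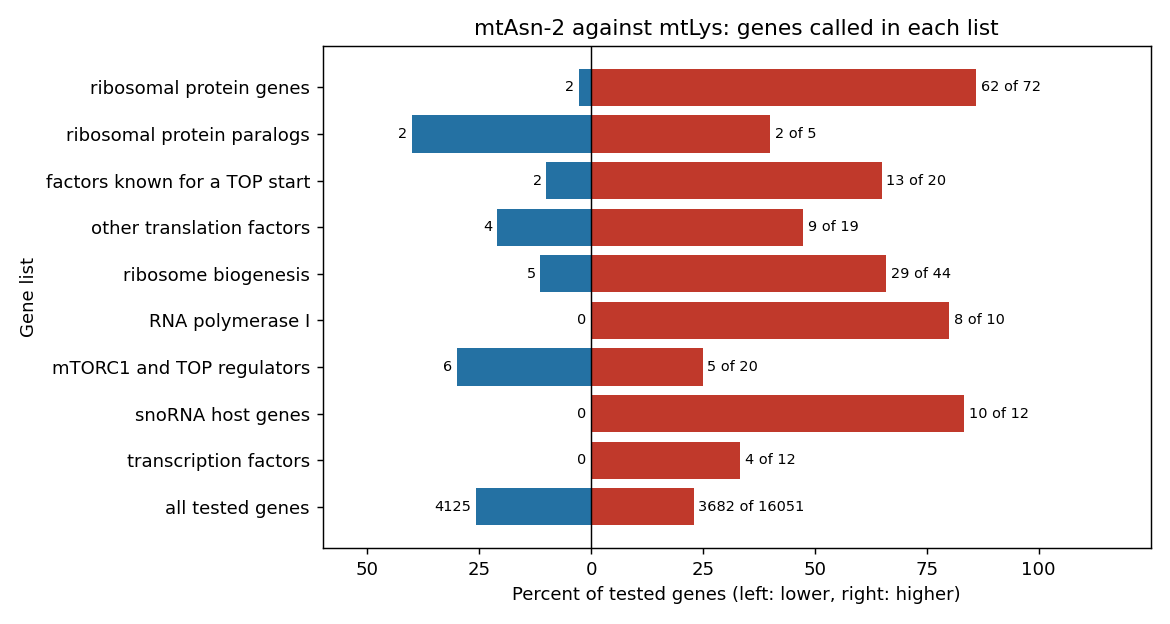
Percent of the tested genes of each list called higher (red, right) and lower (blue, left) in mtAsn-2 against mtLys, with the counts at the bar ends. Every list shown has a larger red bar than all tested genes (3682 of 16051), from ribosomal protein genes (62 of 72 higher) to mTORC1 and TOP regulators (5 of 20). Between them lie snoRNA host genes (10 of 12), RNA polymerase I (8 of 10) and ribosome biogenesis (29 of 44), among others. Factors and other genes known for a TOP start (13 of 20) and other translation factors (9 of 19) also lie there.

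Other genes of the translation machinery and of ribosome production were counted in lists, with no test of a list. Each count can be set beside the share of all tested genes called, which was 24.3% higher and 24.2% lower for mtAsn-1 against control, 24.1% and 27% for mtAsn-2 against control, 24.6% and 23.9% for mtLys against control, and 22.9% and 25.7% for mtAsn-2 against mtLys. Ribosome biogenesis factors process ribosomal RNA and assemble the subunits in the nucleolus. Of 44 tested, 26 were higher and 5 lower with mtAsn-2 than in control, 6 higher and 17 lower with mtAsn-1, and 3 higher and 9 lower with mtLys, where both shares were below those of all genes. Between mtAsn-2 and mtLys 29 were higher and 5 lower, with a median log2 fold change of 0.22. Among the rises, GNL2 (0.56 ± 0.04), BYSL (0.46 ± 0.06) and NOLC1 (0.41 ± 0.04) had the smallest adjusted p. RRP1, a nucleolar factor of large-subunit processing, went the other way with mtAsn-2, from 59.8 CPM in control to 24.6 CPM (-1.28 ± 0.06, adjusted p = 7.5e-17). Between mtAsn-1 and mtLys, edgeR and DESeq2 called none of the 44 in either direction, and 1 was higher and 1 lower at an unadjusted p under 0.05 in each tool. Only 2.12% of all tested genes were called higher and 3.14% lower there, so a count of none among 44 is near the share of all genes.

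RNA polymerase I, which makes the precursor of ribosomal RNA, had 8 of 10 tested genes higher and none lower between mtAsn-2 and mtLys in edgeR, with none lower in DESeq2 or at an unadjusted p under 0.05 in either. POLR1B (0.47 ± 0.05), TAF1A (0.42 ± 0.08) and POLR1C (0.29 ± 0.05) had the smallest adjusted p. Host genes of small nucleolar RNAs, which carry a TOP start without coding for a protein of the ribosome, had 10 of 12 higher between mtAsn-2 and mtLys, with none lower in edgeR, in DESeq2 or at an unadjusted p under 0.05. Against control, 4 of the 12 were higher and 5 lower with mtAsn-2, against 24.1% and 27% of all genes, and 1 was higher and 8 lower with mtLys, against 24.6% and 23.9% of all genes. SNHG16 was 0.69 ± 0.05 higher with mtAsn-2 than with mtLys, EPB41L4A-AS1 0.56 ± 0.07 and SNHG5 0.35 ± 0.05.

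A list of translation factors and other genes known for a TOP start also held VIM, NPM1 and HNRNPA1, among others. It had 13 of 20 higher and 2 lower between mtAsn-2 and mtLys, against 22.9% and 25.7% of all genes. The 2 lower were EIF3H and VIM (-0.20 ± 0.04). Between mtLys and control 2 were higher and 11 lower, against 24.6% and 23.9% of all genes. EIF4B, which helps unwind messengers, was the factor with the smallest adjusted p among the falls with mtLys (-0.50 ± 0.04). It was also lower with mtAsn-1 (-0.34 ± 0.04) and mtAsn-2 (-0.17 ± 0.04). The elongation factor EEF1A1 was lower than control with all 3 LNAs, at -0.16, -0.13 and -0.22 on the log2 scale for mtAsn-1, mtAsn-2 and mtLys (SE 0.04 each), although with library totals alone its call with mtAsn-2 was lost (adjusted p = 0.17). EIF3H, a subunit of the factor that recruits the small subunit, was at -0.50 ± 0.04 with mtAsn-2 against control, the furthest down of the 4 called lower there. Initiation and elongation factors without TOP selection had 9 of 19 higher and 4 lower between mtAsn-2 and mtLys. The share higher was above the 22.9% of all genes, and the share lower was below the 25.7% of all genes. EIF2B3, part of the exchange factor of eIF2, was lower there at -0.69 ± 0.05.

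Of 20 genes of the mTORC1 pathway and TOP regulators, 5 were higher and 6 lower between mtAsn-2 and mtLys, which is close to the 22.9% and 25.7% of all genes. RPTOR, the scaffold of mTORC1, was lower with mtAsn-2 than with mtLys (-0.51 ± 0.04), as was TSC2, an inhibitor of the complex (-0.43 ± 0.05). RPS6KB1, an S6 kinase, and LARP1, the binding protein of TOP messengers, were higher by 0.26 ± 0.05 and 0.19 ± 0.04. Among 12 transcription factors known to act on ribosome genes, 4 were higher and none lower between mtAsn-2 and mtLys in edgeR, with none lower in DESeq2 and 1 lower at an unadjusted p under 0.05 in edgeR. Set against control, the mtAsn-1 group had 2 of these 12 factors higher, while 5 were lower. For mtAsn-2 the tally was 3 higher, 5 lower. For mtLys it was 2 higher, 6 lower. MYC, which drives ribosome production, went against this lean. It was above control with mtAsn-1 (0.27 ± 0.04), mtAsn-2 (0.49 ± 0.04) and mtLys (0.20 ± 0.04). MXD1, an antagonist of MYC, was higher with mtAsn-2 than with mtLys (0.61 ± 0.08).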

How the data were processed

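TruSeq libraries were made from RNA of LNA-transfected MDA-MB-231 cells, per the labels' protocols. The deposited values are raw read counts per gene for 12 libraries, not normalised. Per the submitters' processing notes, FastQC, STAR 2.6.0a, featureCounts and DESeq2 were used with hg38, with no role or order given. Neither strandedness nor the treatment of reads with several matches is given there. Of 52897 lines, 52859 genes were used. The broken lines of 12 genes and their 26 fragments were left out. Members were found by gene name. Members and gene lists were chosen with earlier results of these data known.

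The quasi-likelihood F test of edgeR 4.0.16 (R 4.3.3, robust setting) was run on all 12 libraries together after TMM scaling. Low genes were removed with filterByExpr using a minimum count of 10 and a minimum total of 15, with Benjamini-Hochberg adjustment over 16051 genes in each comparison. The common biological coefficient of variation was 0.042. Each SE was derived from F, as the size of the log2 fold change divided by its square root. Log2 CPM used a prior count of 2. Shares were compared with two-sided exact permutation tests (scipy 1.17.1). The rule for genes named with values took members called in opposite directions with mtAsn-2 and mtLys against control, the 6 largest rises and 6 largest falls called per comparison, the 3 highest and 3 lowest members by TPM, a fixed set (RPLP0, RPLP1, RPLP2, RPSA, RPL5, RPL11, RPS6, RPL22, RPS27), FAU and tested paralogs, and up to 3 rises and 3 falls per list with the smallest adjusted p. Only part of these are printed, and some genes are not reported here. Replicates were checked for copied libraries by a chi-square of their counts (2.33 to 5.62 per gene), and none was found. The test was checked on simulated data. Alternatives were RLE factors, library totals alone, TMM without members and mitochondrial genes, DESeq2 1.42.0, no filter, fits of the compared groups alone, a stricter filter (1 CPM in every library of a group and mean log2 CPM of 2 as minimum), replicate number as a block, pseudogene counts added, and leaving out each library. Promoters are RefSeq, GRCh38.p14. Protein sequences were not used here. Tables came from pandas 2.3.3 with numpy 2.4.6 under Python 3.11.15, and plots from matplotlib 3.10.9.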

Additional observations from a re-analysis of the deposited data

How the results depend on the processing

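Of 116 values of the main counts and shares under settings other than a left-out library, 108 stayed within 1.5 times the main count or within 1 SD. Members lower with mtAsn-1 than in control (3) were 5 with library totals alone, 1 without a filter on low counts and 1 with the compared groups alone. Members lower with mtAsn-1 than with mtAsn-2 (23) were 52 with library totals alone. Members lower with mtAsn-2 than with mtLys (2) were 1 with library totals alone and 1 without a filter. The mtAsn-2 share of 5.01% became 5.072% with pseudogene counts added and 5.065% of counts outside mitochondrial genes, a shift above its SD. The causes were not tested. With each library left out in turn, members higher and lower numbered 13 to 20 and 1 to 4 (mtAsn-1 against control), 34 to 45 and 2 to 5 (mtAsn-2 against control), 1 to 1 and 20 to 36 (mtLys against control), 2 to 6 and 15 to 28 (mtAsn-1 against mtAsn-2), 9 to 38 and 0 to 0 (mtAsn-1 against mtLys), and 57 to 63 and 1 to 2 (mtAsn-2 against mtLys). Libraries with the same replicate number did not deviate together (correlations of -0.099 to 0.042 over 18 pairs of libraries, against -0.098 to 0.123 for other pairs), so the numbers were not taken to pair them. With a replicate block, members higher and lower were 17 and 3, 39 and 2, 1 and 28, 3 and 20, 25 and 0, and 59 and 2 in the same order of comparisons. No named gene reversed its direction under any alternative where it was called.
A run of at least 5 or 8 pyrimidines in place of 6 was found in 59 or 51 of 62 members. Precision is lowest for RPL36A, RPS10, RPL17 and RPL39, which have the fewest counts of the tested members. Why the 5 untested members have so few counts was not tested.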
